A study of Mus musculus with 9 samples.

Results

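Heat shock proteins and molecular chaperones were followed in mouse nasal mucosa as 87 genes, taken from the 19938 genes with a probe set of their own on the array. A gene entered by its symbol alone, if the symbol named an HSP70 or HSP110 protein (Hspa, Hsph), an HSP90 (Hsp90), a small heat shock protein or heat shock binding protein (Hspb), the mitochondrial chaperonin (Hspd, Hspe), a J-domain protein (Dnaja, Dnajb, Dnajc), a BAG protein (Bag) or a subunit of the CCT ring (Cct2 to Cct8 and Tcp1). These genes had 110 probe sets, and the brightest of a gene's probe sets over the 9 arrays stood for it. They fell into 11 classes: 28 DNAJC, 13 DNAJB, 10 HSP70, 9 CCT ring, 8 small heat shock, 6 BAG, 4 DNAJA, 3 HSP110, 2 HSP90, 2 mitochondrial chaperonin and 2 heat shock binding genes.

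The study asked which genes relate to allergen avoidance in a mouse model of allergic rhinitis. BALB/c mice, labelled male and aged 6 to 8 weeks, formed 3 groups of 3 arrays. The 4-week group was sensitized and challenged with ovalbumin (OVA), the egg white protein used as allergen, and killed 4 weeks after the final challenge. The OVA group had the same sensitization and challenge and was killed 2 hours after it, and the control group received saline at both stages. The labels give neither the time at which control mice were killed nor whether every array came from an animal of its own. If they did not, the p-values measure a spread among samples that may be technical.

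Chaperones bind unfolded or partly folded proteins and help them fold, assemble, cross membranes or be degraded. In the cytosol, J-domain proteins hand clients to HSP70, nucleotide exchange factors of the HSP110 and BAG families reset HSP70, and HSP90 and the barrel-shaped CCT ring complete the folding of selected clients such as kinases, receptors, actin and tubulin. A separate set works in the endoplasmic reticulum, where secretory cells such as nasal gland cells and plasma cells fold the proteins they export, and another set works in mitochondria. The cytosolic set is induced by heat shock factor 1 through heat shock elements in DNA, and the endoplasmic reticulum set by the unfolded protein response, in part through the endoplasmic reticulum stress element.

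Promoter sequences are shown for members of these 2 inducible sets, since their values are set side by side in the results. The windows held the 250 bases before a RefSeq transcription start and were read from RefSeq's table for GRCm38.p6, which gave a window for 72 of the 87 genes. For the endoplasmic reticulum set the element searched on both strands was CCAAT, then 9 bases of any kind, then CCACG. It occurred in the windows of 3 of 7 endoplasmic reticulum genes, Hspa5, Hsp90b1 and Dnajc3, and in 0.113% of all 32851 promoter windows. Capitals mark the element, on whichever strand it was read. The Hspa5 stretch is chr2:34772005-34772063, plus strand. That of Hsp90b1, with 2 matches, is chr10:86705513-86705676, minus strand. That of Dnajc3 is chr14:118937807-118937865, plus strand.
Hspa5: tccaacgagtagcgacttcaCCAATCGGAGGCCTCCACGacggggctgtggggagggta
Hsp90b1: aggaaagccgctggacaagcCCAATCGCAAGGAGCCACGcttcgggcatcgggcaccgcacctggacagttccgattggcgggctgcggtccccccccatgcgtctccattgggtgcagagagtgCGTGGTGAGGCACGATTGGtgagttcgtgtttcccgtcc
Dnajc3: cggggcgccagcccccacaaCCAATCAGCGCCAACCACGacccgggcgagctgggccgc

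For the heat-inducible set the letters searched on both strands were the paired heat shock units GAANNTTC and TTCNNGAA. They occurred in 50.0% of the 16 windows of the heat-inducible genes and in 12.8% of all promoter windows, and 7 of the 10 heat-inducible genes with a window held at least 1 match, namely Hspa1a, Hsph1, Dnaja1, Hspe1, Dnajb4, Hspb1 and Hspd1. The stretches of the first 4 are shown, which were picked with their values known. Longer runs of 3 units, which contain the paired ones, were found at Hspd1, Hspe1 and Dnajb6, and in 0.466% of all windows. Capitals mark the matched letters, which in Hspe1 are 3 overlapping matches. The Hspa1a stretch is chr17:34972233-34972280, minus strand. That of Hsph1 is chr5:149636342-149636389, minus strand. That of Dnaja1 is chr4:40722324-40722371, plus strand, and that of Hspe1 is chr1:55088039-55088096, plus strand. A match describes these letters in these windows and was not tested as a binding site.
Hspa1a: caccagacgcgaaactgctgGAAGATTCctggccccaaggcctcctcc
Hsph1: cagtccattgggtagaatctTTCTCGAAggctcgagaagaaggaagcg
Dnaja1: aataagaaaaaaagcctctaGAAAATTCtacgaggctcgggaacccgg
Hspe1: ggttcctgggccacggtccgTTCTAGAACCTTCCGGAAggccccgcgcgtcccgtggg

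Values are log2 expression per probe set on Affymetrix Mouse Gene 1.0 ST arrays, on which a difference of 1 is a 2-fold difference. Array medians lay between 6.38 and 6.45, and arrays of the same group correlated at 0.986 to 0.992 over all probe sets, against 0.973 to 0.988 for arrays of different groups. Sex-linked genes went against the labels of 1 group. Xist, the RNA of the inactive X chromosome, read 4.27 to 4.42 on the 4-week arrays and 4.22 to 4.36 on the OVA arrays, against 10.62 to 11.11 on the control arrays, and the Y-linked Eif2s3y read 8.15 to 8.46 on the 4-week arrays and 8.08 to 8.47 on the OVA arrays, against 3.00 to 3.58 on the control arrays. All 3 arrays labelled control therefore carried a female pattern, and in every difference from control below, treatment and sex cannot be told apart. Markers of nasal glands and olfactory neurons were bright on all 9 arrays, with summed log2 levels of at least 14.73 and 14.09.

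At 4 weeks after the last challenge, 16 of the 87 chaperone genes rose relative to control and 2 fell in the limma fit (Benjamini-Hochberg adjusted p under 0.05 over 23410 probe sets). That is 20.7% of the members in either direction, 18.4% higher and 2.30% lower. Of all probe sets 14.4% passed in either direction, 7.92% higher and 6.45% lower. Both HSP90 genes, all 3 HSP110 genes, Tcp1, Cct4, Cct6a, Hspa1a, Hspa8 and 6 J-domain genes were the ones that rose. After quantile normalization the count was 10 higher and 3 lower, and without control replicate 2, 4-week replicate 1 or 4-week replicate 2 it was 10 higher. The median change over the 87 genes was 0.10, against -0.0414 over all probe sets. At an unadjusted p under 0.05 there were 39 member genes (44.8%), and 32.9% of all probe sets. Because whole mucosa was measured, fewer cells of a type and less RNA per cell cannot be told apart.

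**Figure D1:**
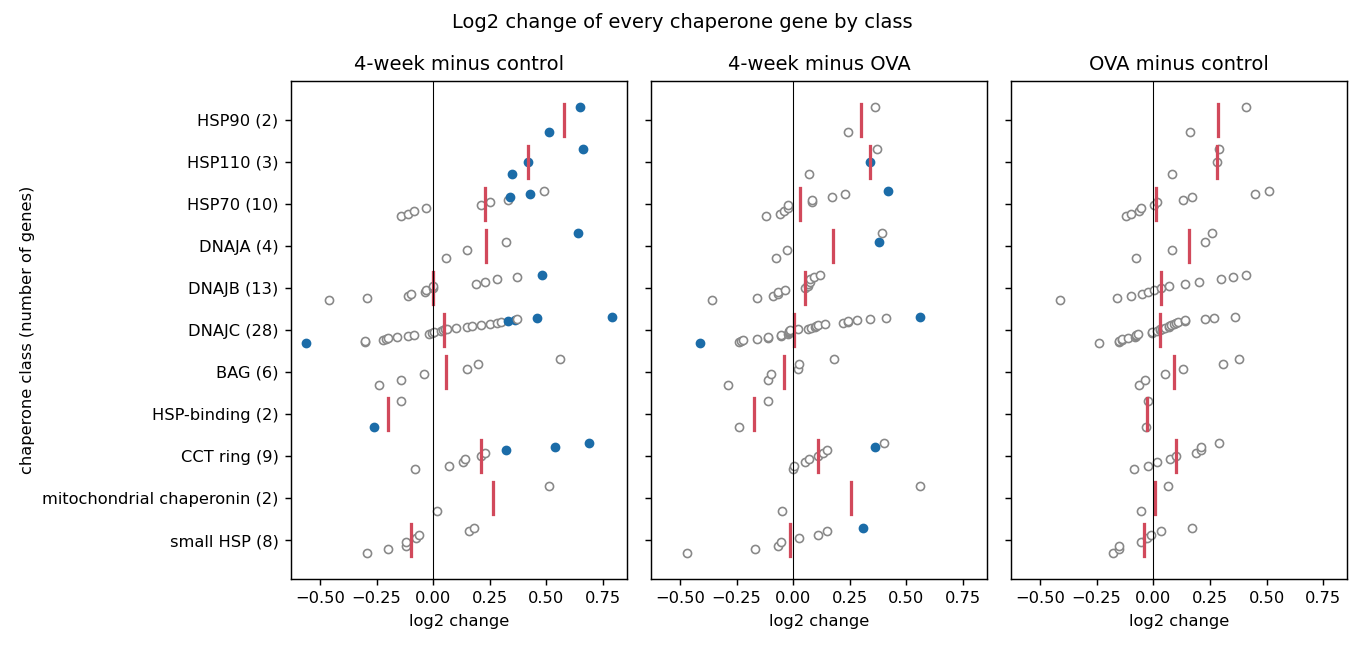
Log2 change of every chaperone gene (points) in each class (rows, with the number of genes), for each comparison (panels). Filled points passed the adjusted threshold of 0.05, and the red bar is the class median. The HSP90 and HSP110 genes all lie above 0 in the comparison of 4-week with control arrays, while the small heat shock genes lie on both sides of 0, between -0.29 and 0.18.

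The HSP90 class holds the dimeric chaperones of kinases, receptors and secreted proteins. Hsp90b1, the HSP90 of the endoplasmic reticulum, read 10.26, 10.38 and 10.18 on the 4-week arrays, 10.16, 9.92 and 10.02 on the OVA arrays and 9.72, 9.52 and 9.62 on the control arrays. All 6 allergen-exposed arrays lay above every control array, and the 4-week arrays above the OVA arrays. The 4-week mean of 10.27 ± 0.10 exceeded the control mean of 9.62 ± 0.10 (SD, n = 3 each) by 0.65 ± 0.0901 (SE), a 1.57-fold difference, with adjusted p = 0.004 in limma. Hsp90aa1, the stress-inducible cytosolic HSP90, read 10.54, 10.24 and 10.09 at 4 weeks, 9.98, 9.98 and 9.85 in the OVA group and 9.93, 9.71 and 9.70 in controls. Here the 4-week arrays stood above all others, and the OVA and control arrays overlapped. It was 0.51 ± 0.118 higher than control (adjusted p = 0.0236). The Hsp90aa1 call was lost without control replicate 2, control replicate 3 or 4-week replicate 2 (adjusted p up to 0.0749). It was also lost after quantile normalization (0.0662) and with only the compared groups in the fit (0.0586). The constitutive cytosolic Hsp90ab1 had no probe set of its own among these genes.

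Every HSP110 gene rose against control. Hsph1, a heat-inducible exchange factor of HSP70, read 7.97, 7.74 and 7.63 on the 4-week arrays, 7.40, 7.55 and 7.29 on the OVA arrays and 7.37, 7.00 and 7.01 on the control arrays. The 4-week values did not overlap either other group, and control replicate 1 lay within the OVA range. The change from control was 0.66 ± 0.128, or 1.58-fold (adjusted p = 0.0131). Hspa4, a constitutive relative, read 9.48, 9.37 and 9.29 at 4 weeks, 9.09, 9.05 and 8.98 after OVA and 8.91, 8.97 and 9.0 in controls. Its OVA and control arrays overlapped, and the 4-week arrays were 0.42 ± 0.0711 above control (adjusted p = 0.00776). Hspa4l, the third of the class, rose by 0.35 ± 0.0942 (adjusted p = 0.041). That call was lost without any 1 of 6 arrays, namely the 3 control arrays, OVA replicate 2, 4-week replicate 1 or 4-week replicate 2 (adjusted p up to 0.11). Quantile normalization (0.0558), every row of the table (0.0578) and a fit of the compared groups only (0.0676) ended it too.

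Of the 10 HSP70 genes, 2 rose against control. Hspa8, the constitutive cytosolic HSP70, read 12.32, 12.17 and 12.18 on the 4-week arrays, 12.05, 12.10 and 12.02 on the OVA arrays and 11.75, 11.95 and 11.97 on the control arrays. The 3 groups did not overlap. The rise was 0.34 ± 0.0799 (adjusted p = 0.0264), and it was lost without control replicate 1, 4-week replicate 1 or 4-week replicate 2 (adjusted p up to 0.0711), after quantile normalization (0.0963) and with the compared groups only (0.0632). Hspa1a, the HSP70 most strongly induced by heat, read 7.43, 7.36 and 7.61 at 4 weeks, 7.08, 7.11 and 6.94 after OVA and 7.09, 7.02 and 7.01 in controls. Only the 4-week arrays were high, by 0.43 ± 0.082 over control (adjusted p = 0.0124), while OVA and control differed by 0.00393. Hspa1b is a near-identical copy of Hspa1a with no probe set of its own, and a probe set annotated to both genes differed from control by 0.16 ± 0.0886 (adjusted p = 0.23), so the Hspa1a value is uncertain as to which copy it reports.

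The other 8 HSP70 genes did not pass. Hspa5 (BiP), the HSP70 of the endoplasmic reticulum, read 10.57, 10.84 and 10.43 at 4 weeks, 10.84, 10.58 and 10.79 after OVA and 10.40, 10.20 and 10.24 in controls. Allergen-exposed arrays were all above the control arrays, and the 4-week and OVA arrays overlapped. The difference from control was 0.33 ± 0.118 at 4 weeks (adjusted p = 0.0887). Hspa13, a microsomal HSP70, differed by 0.49 ± 0.147 (0.0569). Hspa9, the HSP70 of mitochondria, differed by 0.21 (0.0969), and Hspa2, known best from the testis, by 0.25 (0.181). The remaining Hspa1l, Hspa12a, Hspa12b and Hspa14 lay between -0.14 and -0.0329.

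The CCT ring, a double barrel of different subunits, folds actin and tubulin. Of its 9 genes on the array 3 rose against control. Cct4 read 8.99, 9.13 and 9.04 on the 4-week arrays, 8.67, 8.61 and 8.66 on the OVA arrays and 8.63, 8.25 and 8.21 on the control arrays. The 4-week arrays stood apart from both other groups, and control replicate 1 fell within the OVA range. Its rise of 0.69 ± 0.108, or 1.61-fold (adjusted p = 0.0063), was the largest of the class. Tcp1, the founding subunit, read 8.62, 8.70 and 8.57 at 4 weeks, 8.34, 8.24 and 8.24 after OVA and 8.06, 8.14 and 8.07 in controls, with no overlap between any groups. It rose by 0.54 ± 0.0651 (adjusted p = 0.00261). Cct6a rose by 0.32 ± 0.073 (0.0224), a call lost without control replicate 2 or 3 or 4-week replicate 1 or 2 (adjusted p up to 0.0647), after quantile normalization (0.0655) and with the compared groups only (0.0537). Cct2, Cct3, Cct5, Cct7 and Cct8 differed by 0.0691 to 0.23 and Cct6b, a subunit known from the testis, by -0.0799, with adjusted p of at least 0.129.

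Hspd1 and Hspe1 form the mitochondrial chaperonin and its lid, and neither passed against control by its brightest probe set. Hspe1 read 9.50, 9.45 and 9.24 at 4 weeks, 8.94, 8.77 and 8.80 after OVA and 9.27, 8.74 and 8.65 in controls. Control replicate 1 reached into the 4-week range, while the other 2 control arrays lay below the OVA arrays. The difference from control was 0.51 ± 0.152 (adjusted p = 0.0564). Hspd1 differed by 0.0153, with a 95% interval of -0.17 to 0.20.

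Among the DNAJA, DNAJB and DNAJC genes, which code for J-domain proteins, 6 rose against control and 1 fell. Dnajc13, an endosomal J-domain protein that acts in membrane trafficking, had the largest change of all 87 genes. It read 9.40, 9.28 and 9.61 on the 4-week arrays, 8.91, 8.79 and 8.91 on the OVA arrays and 8.66, 8.60 and 8.65 on the control arrays. The groups did not overlap, and the rise against control was 0.79 ± 0.0879, or 1.73-fold (adjusted p = 0.00239). Dnaja1, the main farnesylated partner of cytosolic HSP70, read 9.16, 8.95 and 8.89 at 4 weeks, 8.63, 8.63 and 8.59 after OVA and 8.37, 8.35 and 8.37 in controls. Again no groups overlapped, and it rose by 0.64 ± 0.0769 (adjusted p = 0.00265). Dnajc7, which binds both HSP70 and HSP90, read 8.08, 8.05 and 8.12 at 4 weeks, 7.90, 7.89 and 7.80 after OVA and 7.74, 7.68 and 7.74 in controls, likewise without overlap, and rose by 0.36 ± 0.0603 (adjusted p = 0.00765).

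The other 3 risers of the J-domain genes belong to the endoplasmic reticulum. Dnajb9, a cofactor of BiP in degradation of misfolded proteins, read 10.18, 10.25 and 10.06 on the 4-week arrays, 10.27, 9.97 and 10.05 on the OVA arrays and 9.58, 9.60 and 9.88 on the control arrays. Dnajc3, a cofactor of BiP that also restrains the stress kinase PERK, read 9.30, 9.47 and 9.13 at 4 weeks, 9.37, 9.11 and 9.12 after OVA and 8.93, 8.87 and 8.72 in controls. In both genes every allergen-exposed array exceeded every control array, and the 4-week and OVA arrays overlapped. Dnajb9 was 0.48 ± 0.11 above control at 4 weeks (adjusted p = 0.0237), lost without control replicate 1 or 2 or 4-week replicate 1 or 2 (up to 0.0806) and after quantile normalization (0.0781). Dnajc3 was 0.46 ± 0.109 above control (0.0258), lost without control replicate 2 or 3 or 4-week replicate 1 or 2 (up to 0.083) and after quantile normalization (0.0562). Dnajc1, a membrane J-domain protein that recruits BiP, rose by 0.33 ± 0.0931 (0.0443), and leaving out any array other than control replicate 3 and OVA replicate 2 ended the call (up to 0.126), as did quantile normalization (0.0598), every row of the table (0.0619) and the compared groups only (0.0611).

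Dnajc24 was the J-domain gene that fell; its product is an iron-binding protein needed to make diphthamide, a modified residue of elongation factor 2, rather than a folding chaperone. It read 7.82, 7.65 and 7.49 on the 4-week arrays, 8.03, 8.11 and 8.06 on the OVA arrays and 8.17, 8.25 and 8.22 on the control arrays. The 4-week arrays were the lowest and the control arrays the highest, with no overlap, and the gene fell by 0.56 ± 0.0857 at 4 weeks relative to control (adjusted p = 0.00568). Of the J-domain genes that did not pass, Dnajb11, a BiP cofactor that binds clients, differed by 0.37 (0.0531) and Dnajc8, a splicing protein, by 0.37 (0.0532). Dnajb14, a membrane protein of the endoplasmic reticulum, differed by -0.46 (0.0663). Dnajc10, a reductase of the endoplasmic reticulum, differed by 0.28 (0.0927), and Dnaja4 by 0.32 (0.136). Dnajb1, the classical heat-inducible HSP40, and Dnajb4 differed by 0.28 (0.181) and 0.23 (0.158). Dnajb13, a protein of sperm tails and motile cilia, differed by -0.29 (0.155), and Dnajc5, the cysteine string protein of synaptic vesicles, differed by -0.00548. The J-domain genes not named so far in this comparison lay between -0.30 (Dnajc17 and Dnajc27) and 0.30 (Dnajc30, a mitochondrial protein), with adjusted p of at least 0.0834. The medians of the DNAJA, DNAJB and DNAJC classes were 0.23, 0.000284 and 0.0488.

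The remaining classes showed little that passed. Of the 2 heat shock binding genes, Hspbap1, whose product binds the small heat shock protein Hspb1, read 6.35, 6.20 and 6.22 on the 4-week arrays, 6.46, 6.46 and 6.59 on the OVA arrays and 6.57, 6.46 and 6.54 on the control arrays. The 4-week arrays were lowest and the other groups overlapped. It fell by 0.26 ± 0.0716 at 4 weeks relative to control (adjusted p = 0.0413), a call that ended without any 1 array other than OVA replicate 3 and 4-week replicate 1 (up to 0.124) and in 5 other settings, with adjusted p of 0.0549 to 0.131. Hspbp1, an exchange factor of HSP70, differed by -0.14. None of the 6 BAG genes passed in limma: Bag1 differed by 0.56 ± 0.193 (adjusted p = 0.0834), Bag3, which works with Hspb8 in selective autophagy, by 0.20 (0.145), and Bag6 by -0.24 (0.132), and these 3 had an unadjusted p under 0.05. Bag2, Bag4 and Bag5 lay between -0.14 and 0.15. None of the 8 small heat shock genes passed either, with a median of -0.10 and 1 unadjusted p under 0.05, that of Hspb8. The heat-inducible Hspb1 differed by 0.18 ± 0.188 and the muscle-rich Hspb6 by -0.29 ± 0.139, and Hspb2, Hspb3, Hspb7, Hspb9 and Hspb11 lay between -0.20 and -0.0644.

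**Figure D2:**
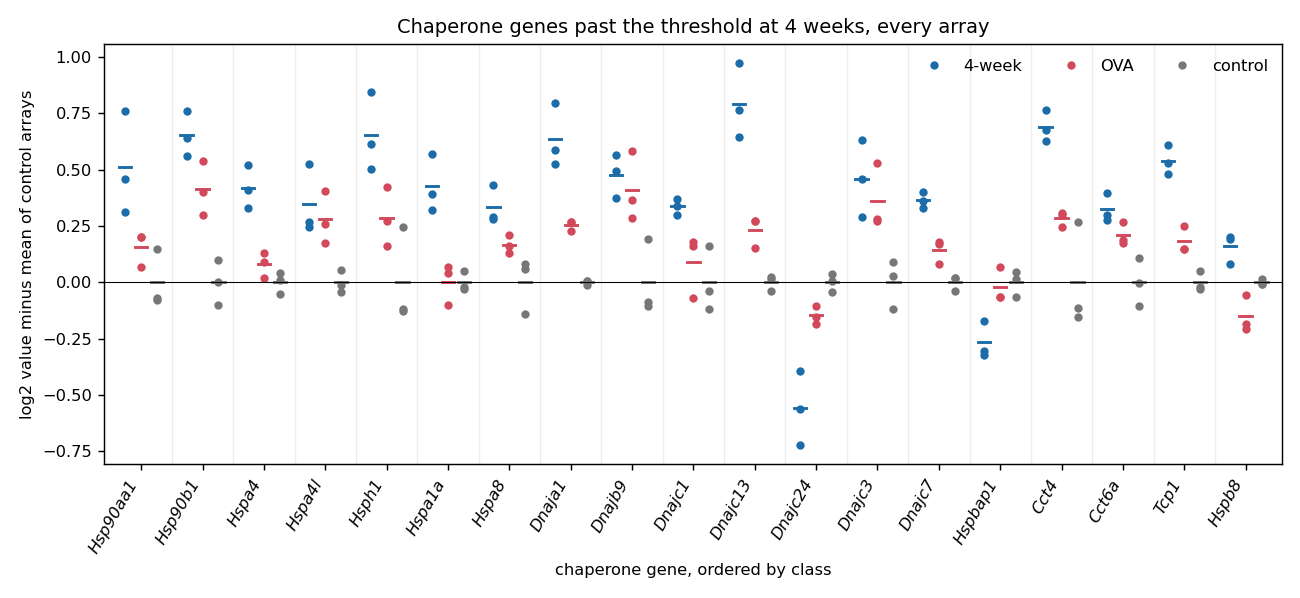
Log2 value minus the mean of the control arrays (vertical axis) on every array for the chaperone genes past the threshold at 4 weeks (horizontal axis, by class). Points are arrays, 3 per group, and bars are group means; Hspb8 is included for its difference from the OVA arrays. Dnajc13, Dnaja1 and Tcp1 show 3 separate levels, whereas for Dnajb9 and Dnajc3 the 4-week and OVA arrays overlap above the control arrays.

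The 4-week and OVA arrays shared the male pattern, and none of 4 sex-linked genes passed between them in limma (adjusted p at least 0.202, with 1 unadjusted p under 0.05). The labels give the same age range, 6 to 8 weeks, for all groups, despite the different times of killing. Any difference in age at death cannot be told apart from time since the challenge. Here 6 of the 87 genes were higher at 4 weeks and 1 was lower, or 8.05% of the members, 6.90% higher and 1.15% lower. Over all probe sets 6.33% passed, 3.81% higher and 2.51% lower. The members' median was 0.0513, against -0.0239 for all probe sets. At an unadjusted p under 0.05 there were 23 member genes (26.4%), and 23.9% of all probe sets. Dnajc13 rose by 0.56 ± 0.0879, or 1.47-fold (adjusted p = 0.0105), and was the only call of the 7 that held without each array in turn. Hspa1a rose by 0.42 ± 0.082 (0.023), Dnaja1 by 0.38 ± 0.0769 (0.0261), Tcp1 by 0.36 ± 0.0651 (0.0188) and Hspa4 by 0.34 ± 0.0711 (0.0294). In all 5 genes the 4-week arrays lay above every OVA array. They were picked because they passed on these same values, so the lack of overlap is no separate support. The probe set annotated to both Hspa1a and Hspa1b differed by -0.0513 between 4 weeks and OVA (adjusted p = 0.766 in limma). The dimmer probe set of Dnaja1 differed by -0.13 (0.437).

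Hspb8, a small heat shock protein that delivers damaged proteins to autophagy, passed in this comparison alone. It read 7.62, 7.51 and 7.63 on the 4-week arrays, 7.24, 7.37 and 7.22 on the OVA arrays and 7.42, 7.42 and 7.44 on the control arrays. The OVA arrays were the lowest and the 4-week arrays the highest, with no overlap. It was 0.31 ± 0.0676 higher at 4 weeks than after OVA (adjusted p = 0.0334), and its differences from control were 0.16 (0.14) at 4 weeks and -0.15 (0.312) after OVA. Dnajc24 fell by 0.41 ± 0.0857 relative to OVA (0.0288). Several genes lay just short of the threshold: Cct4 at 0.40 ± 0.108 (0.0626), Hspe1 at 0.56 ± 0.152 (0.0646), Dnajc7 at 0.22 ± 0.0603 (0.0657), Dnajc15, a mitochondrial import protein, at 0.28 ± 0.0782 (0.0661) and Hspb6 at -0.47 ± 0.139 (0.084). Hsp90aa1 and Hsph1 differed by 0.36 (0.109) and 0.37 (0.126).

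These calls rested on few arrays. Of the 7, 1 was left without OVA replicate 3, 2 without OVA replicate 2 or 4-week replicate 2, 3 without OVA replicate 1, and 4 without 4-week replicate 1 or 3, with adjusted p of lost calls up to 0.113. The Tcp1 call was lost without OVA replicate 2 or 3 or 4-week replicate 2 (up to 0.0695), and that of Hspa1a without OVA replicate 2 or 3 or 4-week replicate 1 or 3 (up to 0.0827). Dnaja1 lost its call without any OVA array or 4-week replicate 2 (up to 0.0875). Dnajc24 lost its call without any OVA array or 4-week replicate 2 or 3 (up to 0.0872). Hspa4 lost its call without control replicate 2, any OVA array or 4-week replicate 1 or 2 (up to 0.101), and Hspb8 without control replicate 2, OVA replicate 1 or 3 or any 4-week array (up to 0.113). With the compared groups only in the fit, 5 of the 7 no longer passed, Dnaja1, Dnajc24, Hspa1a, Hspa4 and Hspb8, while Cct4 and Hspe1 did. Centring each array on its median raised the count to 11 higher and 0 lower, and the loss there was Dnajc24 (adjusted p = 0.0558). Of all probe sets 7.43% passed in that setting.

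At 2 hours after the last challenge no chaperone gene passed in limma against control, in either direction. Over all probe sets 1.3% passed, 0.782% higher and 0.521% lower. At an unadjusted p under 0.05 there were 20 member genes (23.0%), and 16.4% of all probe sets. Quantile normalization gave 1 call, Hsp90b1, and leaving out control replicate 1 gave 1, Cct4. The smallest adjusted p was that of Hsp90b1, which was 0.41 above control (0.0727). Hspa5 was 0.45 above control (0.11), Hspa13 0.51 (0.138), Dnajb9 0.41 (0.118), Dnajc3 0.36 (0.153) and Dnajb11 0.30 (0.226), and in each of these 6 endoplasmic reticulum genes all OVA arrays lay above all control arrays. The other genes on the endoplasmic reticulum list, Dnajc1 (0.0895, 0.675) and Dnajc10 (0.0399, 0.88), overlapped between OVA and control. So did Dnajb14, which is not on that list, at -0.10 (0.782). How many of all probe sets lacked overlap was not counted. The lowest difference was that of the cilia gene Dnajb13, at -0.41 (0.163).

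Of the 12 heat-inducible genes measured, 3 were higher at 4 weeks than after OVA (Hspa1a, Dnaja1 and Hspb8), 5 were higher at 4 weeks than in controls (Hspa1a, Dnaja1, Hsph1, Hspa8 and Hsp90aa1) and 0 passed between OVA and control in limma (2 with an unadjusted p under 0.05). Their median changes were 0.24, 0.31 and 0.15 in those comparisons. Over all probe sets 3.81%, 7.92% and 0.782% passed as higher there, and 23.9%, 32.9% and 16.4% had an unadjusted p under 0.05. Hspa8 is on the heat-inducible list although it is the constitutive cytosolic HSP70. For Hspa1a and Dnaja1, further probe sets annotated to the gene passed in none of these comparisons. Of the 8 listed endoplasmic reticulum genes, 0 passed between 4-week and OVA (3 unadjusted), 4 were higher at 4 weeks than in controls (Hsp90b1, Dnajb9, Dnajc3 and Dnajc1) and 0 passed between OVA and control (6 unadjusted). Their medians were 0.0875, 0.42 and 0.39. Dnajb14, a membrane protein of the endoplasmic reticulum that is not on the list, differed by -0.36, -0.46 and -0.10 there. The comparisons share arrays, so these medians are not independent of each other, and the difference between the sets was not tested.

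On each array, the mean shift of the heat-inducible genes from the control mean was 0.43, 0.33 and 0.27 at 4 weeks, 0.14, 0.17 and 0.0404 after OVA and 0.11, -0.00791 and -0.10 in controls. The 4-week arrays stood above the OVA arrays, which overlapped the control arrays. For the endoplasmic reticulum genes it was 0.40, 0.57 and 0.30 at 4 weeks, 0.45, 0.20 and 0.31 after OVA and 0.0209, -0.0469 and 0.026 in controls. There the 4-week and OVA arrays overlapped, and both lay above the control arrays. Of the 7 heat-inducible genes with paired heat shock units, Hspa1a, Hsph1 and Dnaja1 rose at 4 weeks against control, while Hspe1, Dnajb4, Hspb1 and Hspd1 differed by 0.51, 0.23, 0.18 and 0.0153 without passing. Of the 3 with the endoplasmic reticulum element, Hsp90b1 and Dnajc3 rose and Hspa5 differed by 0.33 without passing.

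**Figure D3:**
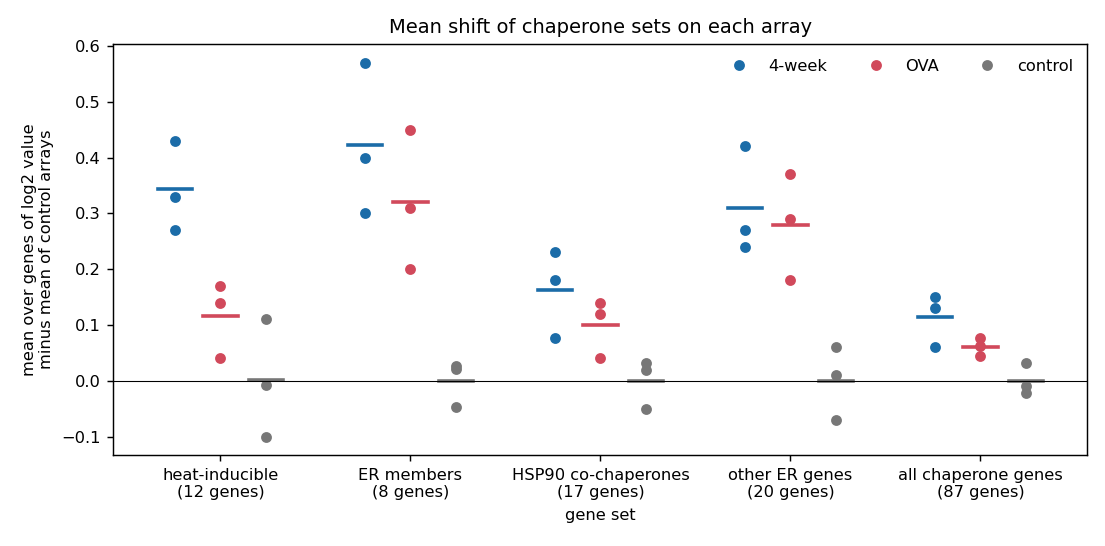
Mean over the genes of each set of the log2 value minus the mean of the control arrays (vertical axis), for each array (points, 3 per group) with group means as bars; 3 wider sets stand beside the 2 described. Heat-inducible genes are highest at 4 weeks (0.27 to 0.43, against 0.0404 to 0.17 after OVA), while endoplasmic reticulum genes overlap between 4 weeks (0.30 to 0.57) and OVA (0.20 to 0.45).

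Other genes of these pathways, which are no members by symbol, were tabulated from lists. Over all probe sets 14.4% passed between 4 weeks and control (7.92% higher). The shares were 6.33% between 4 weeks and OVA (3.81% higher) and 1.3% between OVA and control (0.782% higher). At an unadjusted p under 0.05 they were 32.9% between 4 weeks and control, 23.9% between 4 weeks and OVA and 16.4% between OVA and control. Of 17 co-chaperones of HSP90, 1 was higher at 4 weeks than after OVA (Cdc37, a kinase loader, 0.39, adjusted p = 0.0422, lost without any 1 of the 9 arrays), 7 were higher and 1 lower at 4 weeks than in controls, and 1 was higher after OVA than in controls (Fkbp5, a glucocorticoid-induced partner of HSP90, 0.64, 0.0431). Against control at 4 weeks these included Ahsa1, the activator of the HSP90 ATPase (0.59, 0.0106), St13, which bridges HSP70 and HSP90 (0.41, 0.00793), Fkbp5 (0.58, 0.0157) and Stip1, the HSP70 to HSP90 adaptor (0.56, 0.0213). Of 20 other folding and stress genes of the endoplasmic reticulum, 8 were higher at 4 weeks than in controls, with Pdia3, a disulfide isomerase, at 0.72 (0.01), Xbp1, a transcription factor of the unfolded protein response, at 0.51 (0.00717), the lectin chaperone Canx at 0.41 (0.0144) and P4hb at 0.46 (0.021). Xbp1 was also higher after OVA than in controls (0.54, 0.0229), and Ddit3, a stress transcription factor, was lower at 4 weeks than after OVA (-0.43, 0.0153). Of 9 other mitochondrial folding genes, 1 was higher at 4 weeks than after OVA (Grpel1, an exchange factor of mitochondrial HSP70, 0.35, 0.016), 3 were higher at 4 weeks than in controls (Grpel2, Yme1l1 and Clpx, by 0.32, 0.46 and 0.32), and 1 was higher after OVA than in controls (Grpel2, a relative of Grpel1, 0.43, 0.0359). Of the prefoldin list, 0 of the 12 prefoldin and CCT cofactor genes passed in any comparison in limma, with an unadjusted p under 0.05 in 2 between 4 weeks and OVA, 2 between 4 weeks and control and 0 between OVA and control. Of 5 heat shock factor genes measured, Hsf3, on the X chromosome, read 2.41 to 2.52 at 4 weeks, 2.59 after OVA and 2.86 to 3.01 in controls and was lower at 4 weeks than in controls (-0.43, 0.00539). The gene of the main heat-responsive factor, Hsf1, had no probe set of its own. Ahsa1, St13, Pdia3, Canx, Xbp1 and Hsf3 kept their calls at 4 weeks against control without each array in turn, and each other call named here was lost without at least 1 of the 9.

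Markers of other cell types moved beside these sets. The shares of all probe sets given above apply to these lists too. The summed log2 level of 6 plasma and B cell markers was 9.44 to 9.85 at 4 weeks, 9.35 to 9.85 after OVA and 8.69 to 9.21 in controls, with both allergen-exposed groups above the controls, and 1 of the 6, Jchain, the joining chain of secreted antibody, passed at 4 weeks against control (2.31, adjusted p = 0.00919). Against control the median change of the 6 was 0.0912 at 4 weeks (range 0.0246 to 2.31) and 0.17 after OVA (-0.0564 to 1.76). Markers of mature olfactory neurons summed to 14.09 to 14.47 at 4 weeks, 14.14 to 14.33 after OVA and 14.38 to 14.63 in controls, and 2 of 9 were lower at 4 weeks than in controls. The 9 ciliated cell markers summed to 11.32 to 11.52 at 4 weeks, 10.51 to 11.06 after OVA and 10.84 to 11.36 in controls, with 0 of 9 past the threshold in limma and 4 with an unadjusted p under 0.05 between 4 weeks and OVA. The 5 squamous epithelium markers summed to 7.78 to 7.91 at 4 weeks, 9.22 to 10.06 after OVA and 7.73 to 9.86 in controls, and 1 of 5 was lower at 4 weeks than after OVA. Of 6 neutrophil markers, Csf3r, the receptor of granulocyte colony-stimulating factor, read 6.17, 6.13 and 6.46 at 4 weeks, 7.40, 7.25 and 7.15 after OVA and 6.66, 6.27 and 5.80 in controls. It was lower at 4 weeks than after OVA (-1.02, 0.0212) and higher after OVA than in controls (1.03, 0.0443), and the first call was lost without any OVA array or 4-week replicate 1 or 2 (up to 0.0756) and the second without any array except control replicate 1 (up to 0.148). The 6 summed to 8.74 to 10.11 at 4 weeks, 9.65 to 10.15 after OVA and 9.25 to 10.52 in controls, and the groups overlapped. Between OVA and control their changes ran from -1.58 to 1.03 (median 0.084), with that of Csf3r the highest. From OVA to 4 weeks they ran from -1.02 to 0.23 (median -0.29), with that of Csf3r the lowest. Of 5 gland markers, which summed to 15.11 to 15.23 at 4 weeks, 14.73 to 15.10 after OVA and 15.02 to 15.11 in controls, Bpifb9a, a secreted gland protein, read 9.89, 7.74 and 8.33 at 4 weeks, 5.12, 5.82 and 8.21 after OVA and 9.87, 11.57 and 12.10 in controls. It was lower after OVA than in controls (-4.80, 0.0415), a call lost without any 1 of 6 arrays, namely control replicate 2 or 3, OVA replicate 1 or 2 or 4-week replicate 2 or 3 (up to 0.141). Between OVA and control the changes of the 5 gland markers ran from -4.80 to 0.21 (median -0.0419), with that of Bpifb9a the lowest. Of the sustentacular, skeletal muscle, macrophage and red cell markers 0 passed in limma in any comparison, with at most 2 genes of a list at an unadjusted p under 0.05. The part of these cell types in the chaperone differences was not tested.

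Probe sets of the same gene gave a further view for 8 of the 87 genes. All 15 probe sets of Dnajc13 were higher at 4 weeks than in controls, by 0.25 to 1.26, 3 of 15 were higher at 4 weeks than after OVA, and 1 of 15 was higher after OVA than in controls (0.37, adjusted p = 0.0457), a call lost without any 1 of the 9 arrays (up to 0.138). The 3 probe sets of Hsp90aa1 changed by 0.48 to 0.51 against control and all passed. Those of Hspa8 changed by 0.34, 0.43 and 1.21 and all passed, and the last of them, with 11.33, 11.26 and 11.22 at 4 weeks, 10.58, 10.44 and 10.25 after OVA and 9.89, 10.07 and 10.24 in controls, also passed between 4 weeks and OVA (0.85, adjusted p = 0.00543). A pair of further probe sets annotated to Hspa8 together with the small nucleolar RNAs of its introns, Snord14c and Snord14d, was higher after OVA than in controls by 0.78 and 0.69 (0.022 and 0.0399) and at 4 weeks than in controls by 0.68 and 0.61 (0.00911 and 0.0161). The first OVA call was lost without control replicate 2 or any OVA array (up to 0.0795), and the second without any array except 4-week replicate 1 (up to 0.133). Both OVA calls were also lost with every row of the table (0.051 and 0.0775) and with the compared groups only (0.0609 and 0.084), and the second 4-week call without 4-week replicate 2 (0.051). Intron-hosted RNA and the host transcript cannot be separated in these probe sets.

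Where probe sets disagreed, Dnaja1 had 1 of 2 past the threshold. The dimmer probe set read 7.81, 7.75 and 8.02 at 4 weeks, 7.93, 8.09 and 7.96 after OVA and 7.81, 7.69 and 7.54 in controls, and its changes were 0.18 against control and -0.13 against OVA, compared with 0.64 and 0.38 for the brighter one. With the mean of both in place of the brighter one, the call of Dnaja1 between 4 weeks and OVA was lost (adjusted p = 0.308). A further probe set, annotated to Dnaja1 together with Mir207, passed in no comparison. At 4 weeks it differed by 0.0316 from control (adjusted p = 0.864) and by 0.08 from OVA (0.704). The dimmer probe set of Hspe1, the mitochondrial co-chaperonin, passed between 4 weeks and OVA (0.56, 0.0331) where the brighter one did not (0.56, 0.0646). It also passed against control (0.47, 0.0348), where the brighter one differed by 0.51 (0.0564). The first call was lost without control replicate 2, OVA replicate 2 or 3 or any 4-week array (adjusted p up to 0.105), and the second without control replicate 2 or 3, OVA replicate 3 or any 4-week array (up to 0.102). The 2 probe sets of Dnajc3 carried the same values on every array, so the second of them adds no measurement to the first, although both are among the 110. Neither of the 2 probe sets of Hspb1 or of Hspd1 passed in any comparison.

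**Figure D4:**
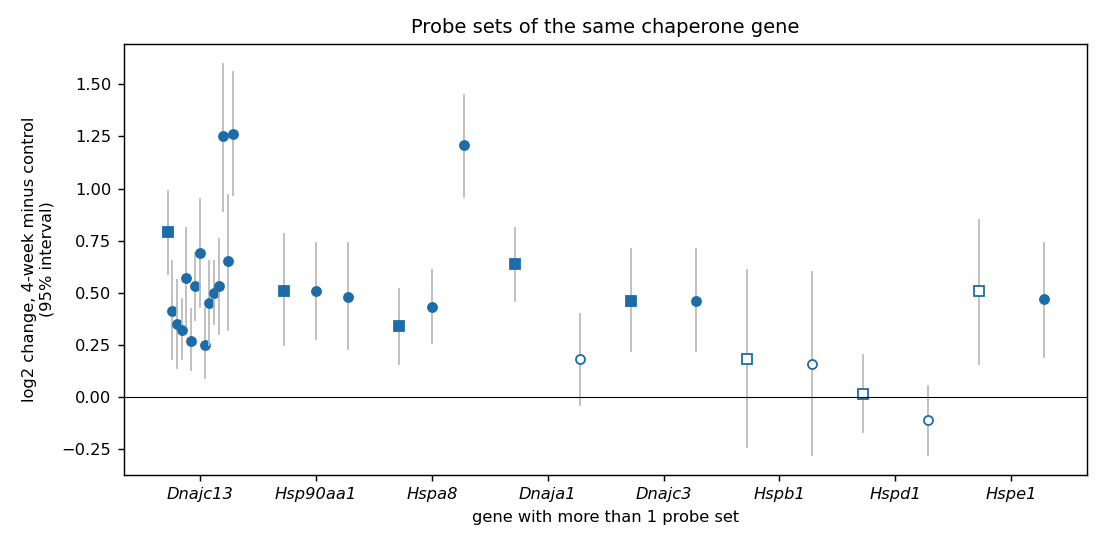
Log2 change of 4-week minus control arrays with its 95% interval (vertical axis) for each probe set of the 8 chaperone genes that have more than 1 (horizontal axis). Squares mark the brightest probe set of a gene, and filled marks passed the threshold. All 15 Dnajc13 probe sets lie above 0, from 0.25 to 1.26, and the 2 Dnaja1 probe sets differ, at 0.18 and 0.64.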

How the data were processed

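Mucosal RNA was extracted on columns and labelled by a whole-transcript method, per the labels' protocols. The authors deposited log2 expression values per probe set made with RMA, per the submitters' processing notes. Which program, version and array library they used is not given in the sources used here. The log2 scale was inferred from the range of the values, 1.63 to 13.8. No detection calls were used, so signal over background is unknown, and the number of arrays limits the precision.

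Of 35556 rows, 23410 had a gene symbol in the platform annotation and were tested, and 21789 of these named 1 gene. A group-means model of all 9 arrays was fitted with limma 3.58.1 under R 4.3.3, where eBayes added 2.98 prior to 6 residual degrees of freedom. P-values are two-sided and adjusted by Benjamini and Hochberg's method over 23410 probe sets, with a threshold of 0.05 and no filter on low values. SE and 95% intervals come from that fit, which was tested on simulated data. There, 54% to 66% of 1.5-fold changes passed, depending on the comparison, and 80% to 90% of 2-fold changes. A change of 1.5-fold or less can therefore be missed. Promoters and chromosomes came from RefSeq tables of GRCm38.p6.

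The named genes are those that passed in any comparison, the extremes and the brightest gene of each class, and the heat-inducible and endoplasmic reticulum sets; of related genes, up to 4 per list and comparison by smallest p. Further members are named to account for their class. The members and lists were chosen with earlier results of these data known. Alternatives were quantile normalization, median centring, a filter keeping the brightest 60% of probe sets, every row of the table, the compared groups only, an intensity trend in the prior, a replicate block, leaving out each array, and the mean of a gene's probe sets.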

Additional observations from a re-analysis of the deposited data

How the results depend on the processing

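No called chaperone gene changed direction in any setting tried. Between 4 weeks and control, the 16 higher calls became 10 after quantile normalization, and the 2 lower calls became 1 after median centring, with every row of the table and with the compared groups only. Of all probe sets tested, 11.6%, 15.0%, 10.8% and 8.77% passed in either direction in those settings, against 14.4% in the main fit. Between 4 weeks and OVA, the 6 higher calls became 11 after median centring and 10 with the filter on dim probe sets, which leaves 71 members. Of all probe sets tested, 7.43% passed in either direction after median centring and 14.1% with that filter, against 6.33% in the main fit. The 1 lower call there became 0 after median centring and with the compared groups only. Between OVA and control, quantile normalization gave 1 higher call where there were 0. Leaving out each array in turn gave 10 to 16 higher and 1 to 4 lower calls between 4 weeks and control. It gave 1 to 8 higher and 0 to 2 lower between 4 weeks and OVA, and 0 to 1 higher and 0 lower between OVA and control. Of all probe sets, 6.66% to 12.7%, 1.91% to 5.81% and 0.269% to 1.3% then passed in either direction in these comparisons. Over all probe sets, the compared groups only gave 2054 calls between 4 weeks and control, 737 between 4 weeks and OVA and 109 between OVA and control, against 3364, 1481 and 305. The cause of these changes was not tested.

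With the replicate block, 20 genes were higher and 1 lower between 4 weeks and control, 7 higher and 2 lower between 4 weeks and OVA, and 0 between OVA and control in limma. Of all probe sets, 14.0%, 5.97% and 0.91% passed there in either direction. The block ended the calls of Hspb8 between 4 weeks and OVA (adjusted p = 0.0617) and of Hspbap1 between 4 weeks and control (0.0549). It added Dnaja4, Hspb6 and Hspe1 between 4 weeks and OVA, and Bag1, Dnaja4, Dnajb11 and Hspe1 between 4 weeks and control. The labels do not say that a number marks a shared animal or day, and deviations of same-numbered arrays correlated at -0.0438 to 0.332, and 4 of the 9 correlations were under 0.1, so the numbers were not taken to pair the samples. Low values cannot be told from background here, and 3 arrays a group limit the precision of each difference.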

Other observations

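Immediate early genes are induced within minutes by many stimuli, and most of the 8 listed code for transcription factors. Their summed log2 level was 10.57 to 10.72 at 4 weeks, 10.64 to 10.93 after OVA and 10.12 to 10.51 in controls. Of the 8 genes, Junb was lower at 4 weeks than after OVA (-0.52, adjusted p = 0.0494 in limma). Jun was higher at 4 weeks than in controls (0.69, 0.00277) and after OVA than in controls (0.45, 0.0415), and Ier3 was higher after OVA than in controls (1.22, 0.0347).

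Of the 87 chaperone genes, 42 (48.3%) had a log2 value that was repeated on at least 2 arrays, and 53.5% of all genes did. Dnajc11, for instance, a mitochondrial J-domain protein, read 6.86 on all 3 4-week arrays. The step that produced these equal values is not given in the sources used here.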
